A study of Mus musculus with 8 samples.

Results

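Retinoic acid receptors and the proteins that handle retinoic acid inside the cell were followed through single-cell RNA sequencing of sorted cells from the frontal isocortex of mice at postnatal day 7. The set was fixed by name and holds 9 genes: the retinoic acid receptors Rara, Rarb and Rarg, the retinoid X receptors Rxra, Rxrb and Rxrg, the retinoic acid-degrading enzyme Cyp26b1, and the binding proteins Crabp1 and Crabp2. All 9 had a row in both deposited tables, among 17836 genes in one and 15769 in the other.

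Cells were sorted by flow cytometry for 1 of 2 transgenes: Drd1a-tdTomato line 6, a bacterial artificial chromosome reporter for the dopamine D1 receptor (called D1Tom here), or golli-τ-eGFP, a golli promoter reporter (called GTE here). Control mice carried Foxp2 flox/flox and the reporter without Cre, and conditional knockout mice (cKO) carried Emx1-Cre in addition, so floxed alleles were common to every group. Emx1-Cre is active in the lineage of cortical excitatory neurons and glia, and cells of other origins keep the gene. Each sort had 2 control and 2 cKO libraries, 8 in all, on a C57BL/6J background. D1Tom control 1, control 2 and cKO 1 came from females and cKO 2 from a male; in GTE, cKO 2 was female and the other 3 libraries were male. The submitters call the replicates independent; whether a library pools animals is not given in the sources used here.

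Retinoic acid is made from vitamin A and acts mainly by binding RAR proteins, which sit on DNA as dimers with RXR proteins and switch target genes from repression to activation. RXR proteins are also the shared partner of thyroid hormone, vitamin D, liver X and peroxisome proliferator receptors. CYP26 enzymes oxidise retinoic acid and so bound the cells in which it can signal, while CRABP1 and CRABP2 carry it through the cytoplasm. In the developing brain the pathway is known for patterning and for the maturation of neurons.

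Rarb is itself a classic target of retinoic acid. To show the sequence through which this is known to work, the promoter of Rarb is printed with those of Cyp26b1 and Crabp1, the members whose levels the results turn on. Each runs from 250 bases before to 50 bases after the RefSeq start site (GRCm38.p6), 5′ to 3′ on the gene's own strand, at chr14:16575427-16575726 (minus strand) for Rarb, chr6:84593761-84594060 (minus strand) for Cyp26b1 and chr9:54764498-54764797 (plus strand) for Crabp1. Capitals mark the pair of half-sites of a direct repeat with 5 bases between its hexamers.
Rarb: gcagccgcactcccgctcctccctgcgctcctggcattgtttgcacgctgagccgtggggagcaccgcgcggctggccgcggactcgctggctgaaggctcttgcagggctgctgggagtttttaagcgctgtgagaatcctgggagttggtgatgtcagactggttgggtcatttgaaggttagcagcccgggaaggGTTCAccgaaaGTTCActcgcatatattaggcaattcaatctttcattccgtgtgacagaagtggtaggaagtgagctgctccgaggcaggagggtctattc
Cyp26b1: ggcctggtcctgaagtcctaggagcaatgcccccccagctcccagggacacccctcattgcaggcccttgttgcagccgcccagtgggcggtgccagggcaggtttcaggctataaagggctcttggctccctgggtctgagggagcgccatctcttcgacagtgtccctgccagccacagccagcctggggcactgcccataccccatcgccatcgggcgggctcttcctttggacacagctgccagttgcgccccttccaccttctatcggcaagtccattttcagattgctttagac
Crabp1: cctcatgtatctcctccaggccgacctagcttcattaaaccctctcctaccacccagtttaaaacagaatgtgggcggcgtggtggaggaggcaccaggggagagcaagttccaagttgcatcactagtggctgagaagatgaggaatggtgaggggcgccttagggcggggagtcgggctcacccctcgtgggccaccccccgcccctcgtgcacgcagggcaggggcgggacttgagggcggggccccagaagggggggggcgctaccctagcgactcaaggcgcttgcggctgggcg

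Promoters were searched on both strands for GTTCA or GGTCA followed, after 6 bases of any kind, by GTTCA or GGTCA, and for the same pairs with 3 bases in place of 6, which leaves 2 bases between the hexamers. The Rarb match began 52 bases before the start site, at chr14:16575513-16575528. Promoters were found for 8 of the 9 members, 15 promoters in all, and Rarb was the only one of these members with a match to the wider repeat. That repeat was present in 81 of 32851 promoters of the same length (0.247%), and in 73 of 27025 genes (0.27%). Among 35 other retinoid genes with a promoter, Cyp26a1 alone had one, on the other strand. The narrower repeat was in none of the promoters of the members or of those other genes, and in 131 of all promoters (0.399%). GC content of the member promoters ran from 51.7% to 83.0%, beside a median of 52.7% over all promoters. The letters are a description of these windows and say nothing of binding in these cells.

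The 9 genes lie on 9 different chromosomes in the GRCm38 annotation, so none of their values share a locus. Rara is at chr11:98927818-98974942, Rarb at chr14:16430839-16819156 and Rarg at chr15:102234938-102257517. Rxra is at chr2:27676440-27762957, Rxrb at chr17:34031812-34038399 and Rxrg at chr1:167598384-167639623. Cyp26b1 is at chr6:84571414-84593908, Crabp1 at chr9:54764748-54773110 and Crabp2 at chr3:87948666-87953376. Exons of Rarb are overlapped on the other strand by Gm48162 and Top2b; whether counting used strand is not given in the sources used here, so Rarb counts are uncertain. The other 8 genes share no exon with another gene.

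The D1Tom libraries held 2395 to 3206 cells with 27323298 to 36379194 counts, and the GTE libraries 1440 to 3948 cells with 4878370 to 6092396 counts. GTE cKO 1 stood apart, with 1440 cells at a median of 2982 counts against 1085.5 to 1268 in the other 3 GTE libraries. Over the 8 libraries values of 2 were 0.307 to 1.69 times as frequent as values of 1, unlike sparse molecule counts, so no counting interval is given for a level. Libraries of a sort shared 4 to 27 cell barcodes, at most 0.925% of the smaller library. Foxp2, the targeted gene, was at 36.3 and 39.1 CPM (a gene's counts scaled to the same library total) in D1Tom control 1 and 2, against 26.5 and 19.4 CPM in cKO 1 and 2 of that sort. Its GTE levels were 9.52, 46.9, 25.4 and 7.43 CPM for control 1, control 2, cKO 1 and cKO 2, so it does not separate the GTE genotypes, and which part of the transcript the counts cover relative to the deleted part is not given in the sources used here. The genotypes below are those of the labels.

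Levels over a whole library, in CPM of its total count, are described first; such a level reflects both how many cells of each type were sorted and how much RNA each holds, which cannot be told apart in it. Values are listed in the order control 1, control 2, cKO 1, cKO 2. D1Tom control 1 and cKO 1 were prepared on one day and D1Tom control 2 and cKO 2 on another, whereas GTE batches are unclear in the labels.

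**Figure D1:**
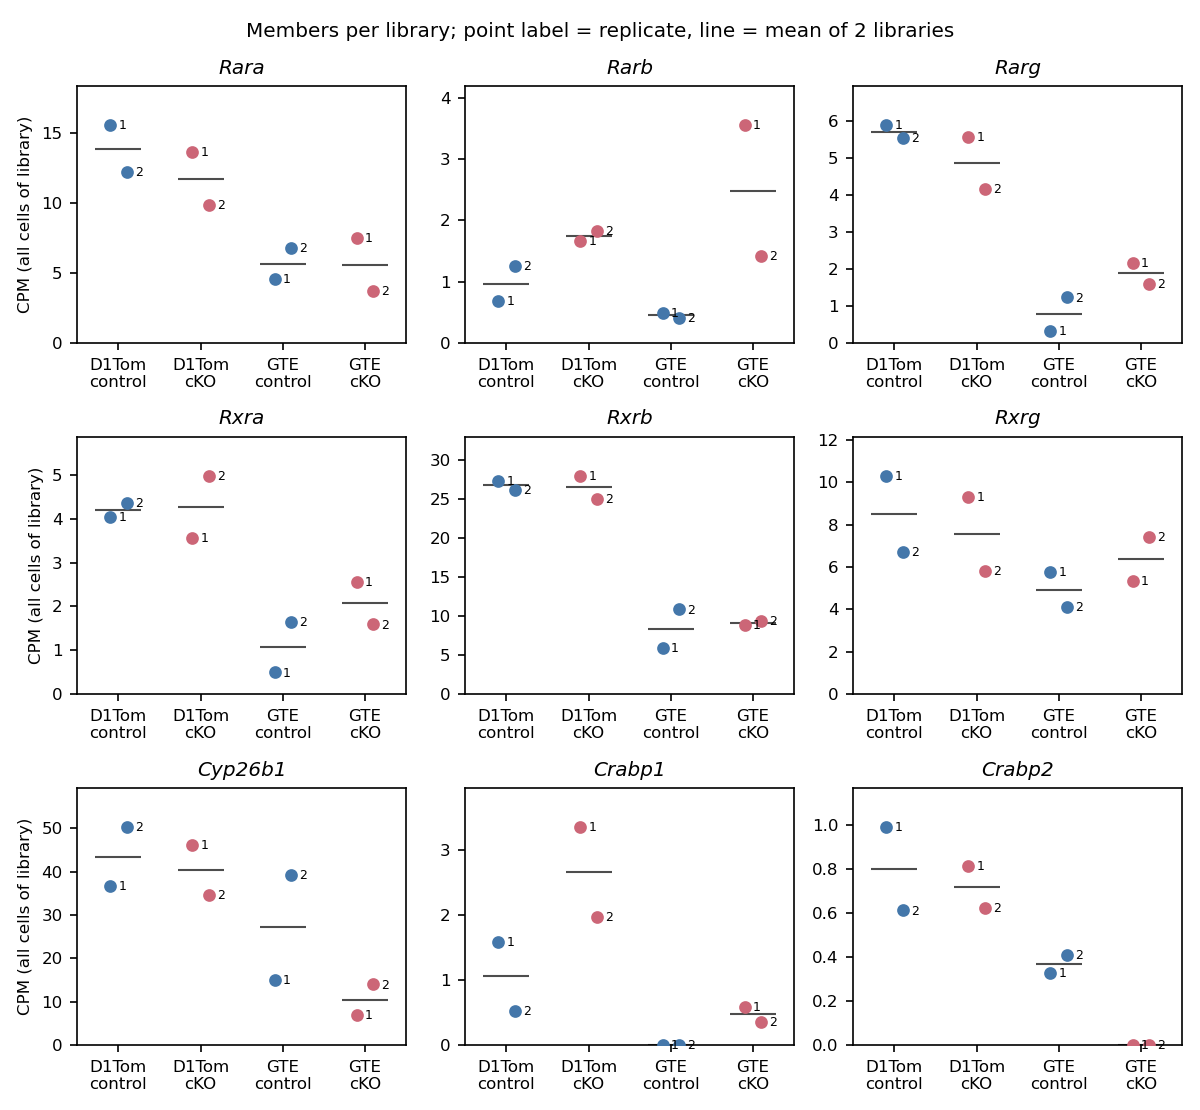
Level of each gene over all cells of a library (vertical axis, CPM, starting at 0) in the D1Tom and GTE sorts, control (blue) and cKO (red). Each point is 1 library, numbered by replicate, and the line is the mean of 2; Rarb and Crabp1 have both cKO points above both control points in each sort, and Cyp26b1 has both GTE cKO points below both GTE controls.

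Among the RAR genes, Rarb had both cKO libraries above both controls in each sort, as did 9.7% (D1Tom) and 19.6% (GTE) of genes tested. In D1Tom it was at 0.687, 1.25, 1.66 and 1.83 CPM, with means of 0.969 ± 0.399 in controls and 1.75 ± 0.119 in cKO (SD, n = 2 libraries each). It follows that the cKO library was the higher one within both preparation days, which adds no separate support. The fitted log2 fold change was 0.90 (SE 0.47) and did not pass (edgeR adjusted p = 0.998). In GTE, Rarb was at 0.492, 0.41, 3.55 and 1.41 CPM, which rests on 3, 2, 18 and 8 counts, too few for the fit of that sort. Of the 18 counts in GTE cKO 1, 6 fell in oligodendrocyte precursor-like, 6 in dividing cell-like and 6 in cluster 2 cells. Markers of dividing cells were higher in both GTE cKO libraries for 6 of 6 genes, where 19.6% of all genes tested were. Their summed levels were 92.6 and 93.7 CPM in controls and 434 and 214 CPM in cKO. Oligodendrocyte precursor markers were higher in both for 4 of 6 genes, with summed levels of 1061, 1115, 3578 and 1454 CPM, and the cells of that type numbered 112, 154, 370 and 118. The part of that makeup in the Rarb difference was not tested. Over both sorts, with sort as a term, Rarb had a log2 fold change of 1.27 (SE 0.49, edgeR adjusted p = 0.930).

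Rara, the most widely expressed RAR, was at 15.6, 12.2, 13.7 and 9.85 CPM in D1Tom and at 4.596, 6.77, 7.49 and 3.71 CPM in GTE. The genotypes overlapped in both sorts (log2 -0.18, SE 0.19 in D1Tom, and -0.46, SE 0.65 in GTE, edgeR adjusted p = 0.998 and 0.984). Rarg, an RAR best known from skin and skeleton, was at 5.88, 5.53, 5.56 and 4.17 CPM in D1Tom, where the genotypes overlapped (log2 -0.18, SE 0.24). In GTE it was at 0.328, 1.23, 2.169 and 1.59 CPM, from 2, 6, 11 and 9 counts, too few for that fit. Both cKO libraries lay above both controls, as they did for 19.6% of the GTE genes tested. No RAR gene passed in any genotype comparison.

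The RXR genes did not separate the genotypes in D1Tom. Rxrb was at 27.4, 26.2, 27.97 and 25.1 CPM, and the genotypes overlapped (log2 0.05, SE 0.14). Rxra was at 4.04, 4.37, 3.56 and 4.98 CPM (log2 0.10, SE 0.33). Rxrg was at 10.3, 6.70, 9.29 and 5.82 CPM (log2 -0.11, SE 0.28), so its D1Tom libraries differed more between preparation days than between genotypes. Adjusted p was 0.998 in edgeR for each. In GTE, Rxrb was at 5.91, 10.9, 8.88 and 9.37 CPM, Rxrg at 5.75, 4.10, 5.33 and 7.43 CPM and Rxra at 0.492, 1.64, 2.56 and 1.59 CPM, and the genotypes overlapped for all 3. Fitted log2 fold changes in GTE were -0.18 (SE 0.58) for Rxrb and 0.02 (SE 0.65) for Rxrg, and Rxra was below the filter on low counts.

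Cyp26b1, the enzyme of the CYP26 family known from the developing brain, was lower in both GTE cKO libraries than in both GTE controls and overlapped between genotypes in D1Tom. The GTE levels were 15.1, 39.2, 6.90 and 14.0 CPM, with means of 27.1 ± 17.0 in controls and 10.4 ± 5.00 in cKO (SD, n = 2). Control 1 and cKO 2 were nearly level, and the distance between the groups came from control 2 and cKO 1. The log2 fold change was -1.55 (SE 0.55, edgeR adjusted p = 0.745). It was -0.94 without control 2, -0.89 without cKO 1, -1.95 without control 1 and -2.64 without cKO 2, and did not pass in any of these (lowest edgeR adjusted p = 0.111, without cKO 2). In the same libraries the summed level of 6 excitatory neuron markers was 259, 438, 133 and 270 CPM. Of these 6 markers, 3 were lower in both cKO libraries, where 6.67% of all GTE genes tested were. The summed level of 6 layer 5 pyramidal tract markers was 444, 897, 308 and 475 CPM, with 1 of the 6 lower in both, while 6 layer 6 corticothalamic markers were at 240, 503, 386 and 285 CPM (0 of 6 lower in both) and 7 upper layer markers at 270, 429, 531 and 291 CPM (3 of 7). The part of these lists in the Cyp26b1 difference was not tested. Within GTE cell groups, Cyp26b1 could be fitted in astrocyte-like cells and in the unnamed clusters 1 and 2, with log2 fold changes of -1.18 (SE 0.75), -1.17 (SE 0.91) and -1.24 (SE 0.67) and edgeR adjusted p of 0.999 to 1.00.

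In D1Tom, Cyp26b1 was at 36.6, 50.2, 46.2 and 34.7 CPM. On the first preparation day the cKO library was higher and on the second it was lower, and the fit gave a log2 fold change of -0.06 (SE 0.22, edgeR adjusted p = 0.998). The difference of the genotype effect between sorts, D1Tom less GTE, was 1.49 on the log2 scale (SE 0.70, edgeR adjusted p = 0.941), so the sorts were not shown to differ.

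Crabp1, which binds retinoic acid in the cytoplasm, was at 1.59, 0.528, 3.36 and 1.98 CPM in D1Tom. Both cKO libraries exceeded both controls, so the cKO library was by necessity the higher within both days. The means were 1.06 ± 0.754 in controls and 2.67 ± 0.976 in cKO (SD, n = 2), and the log2 fold change was 1.39 (SE 0.57, edgeR adjusted p = 0.998). With the replicate number as a block, which in D1Tom is the preparation day, it was 1.49 (SE 0.36, edgeR adjusted p = 0.375), and it was 0.83 without control 2 and 2.32 without control 1. In GTE, Crabp1 was listed at 0 in both controls and had 3 and 2 counts in the cKO libraries, at or under the floor of 3 counts, so no fold is given. Over both sorts the log2 fold change was 1.65 (SE 0.64, edgeR adjusted p = 0.930).

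Crabp2, the partner protein that delivers retinoic acid to RAR, was sparse, with 17 to 36 counts in the D1Tom libraries. It was at 0.99, 0.612, 0.814 and 0.622 CPM in D1Tom (log2 -0.09, SE 0.46, edgeR adjusted p = 0.998). In GTE it had 2 counts in each control, at 0.328 and 0.41 CPM, and was listed at 0 in both cKO libraries. The interaction had an edgeR adjusted p of 0.941, and its fitted fold change depends on the prior count because of the zeros.

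**Figure D2:**
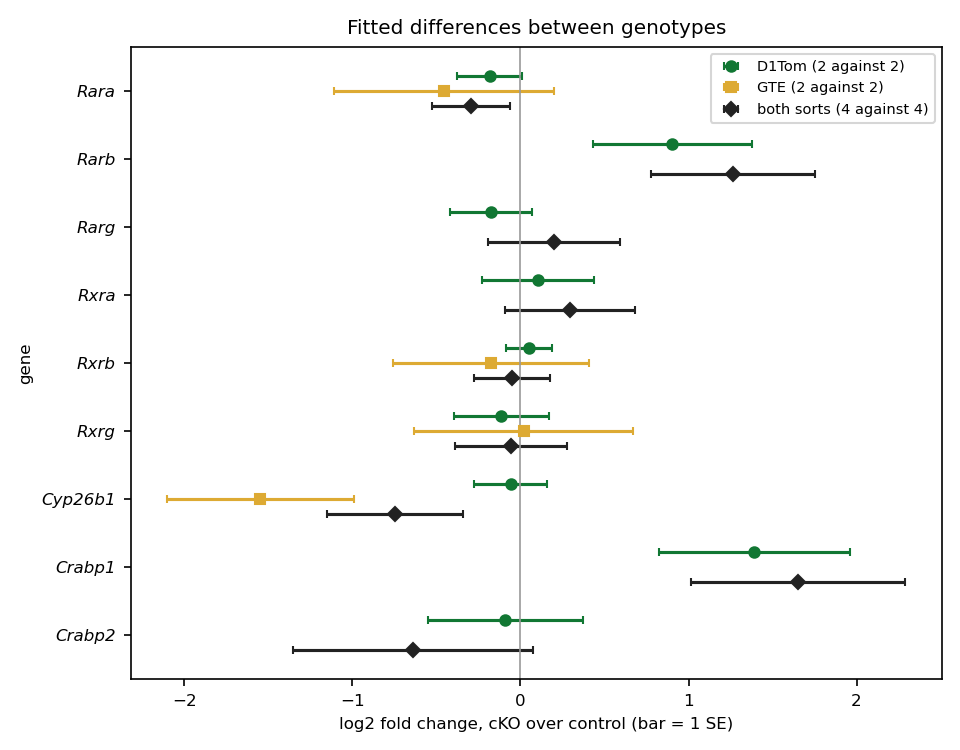
Log2 fold change, cKO over control (horizontal axis), from edgeR for each gene in D1Tom (green), GTE (yellow) and both sorts with sort as a term (black). Bars are 1 SE on each side. Rarb, Rarg, Rxra, Crabp1 and Crabp2 have no GTE value, since their counts were below the filter. None of the genes shown passed an adjusted p of 0.05.

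Counted together, none of the 9 members passed in D1Tom, where 0% of 14508 genes did, none of the 4 tested members passed in GTE, where 0.0332% of 12042 genes did, and none of 9 passed over both sorts, where 0% of 13765 genes did. The interaction called none of 9 members and 0% of 14026 genes. At an unadjusted edgeR p under 0.05 there were 0 members in D1Tom (2.21% of all genes), 1 in GTE (Cyp26b1; 5.22%), 2 over both sorts (Crabp1 and Rarb; 3.09%) and 1 for the interaction (Crabp2; 3.22%). DESeq2 called no member in any of these 4 comparisons, with 1 in D1Tom (Crabp1) at an unadjusted p under 0.05. In D1Tom 2 of 9 members had both cKO libraries above both controls, where 9.7% of all genes did, and 0 had both below, where 13.7% did. In GTE 0 of the 4 tested members had both cKO libraries above both controls (19.6% of all genes) and 1 had both below (6.67%). Members under the filter on low counts are outside this GTE count. Of these, Rarb, Rarg and Crabp1 had both cKO libraries above both controls, Crabp2 had both below, and Rxra overlapped. The median log2 fold change of the members was -0.06 in D1Tom, beside -0.01 over all genes, and -0.32 over the 4 tested in GTE, beside -0.05.

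The D1Tom and GTE controls were compared next, in a fit of all 8 libraries. All 9 members had a positive log2 difference, D1Tom over GTE, with a median of 0.62 beside 0.04 over all genes. The unadjusted edgeR p was under 0.05 for 4 of the 9 (Rarg, Rxrb, Crabp1 and Rxra), beside 23.9% of all genes. Rarb, Rxrg and Cyp26b1 changed sign when some single library was left out, and Crabp1 was listed at 0 in both GTE controls, so its fold is not given. None passed in edgeR, where 3.22% of 14026 genes did. For Rarg the D1Tom controls had 5.88 and 5.53 CPM and the GTE controls 0.328 and 1.23 CPM, a log2 difference of 2.27 (SE 0.58, edgeR adjusted p = 0.061). Those GTE values rest on 2 and 6 counts, the first under the floor of 3 counts, so the size of the Rarg difference is uncertain. Rxrb was at 27.4 and 26.2 CPM against 5.91 and 10.9 CPM, a difference of 1.03 (SE 0.34, edgeR adjusted p = 0.11). DESeq2 called these 2 members, with adjusted p of 0.011 for Rarg and 0.046 for Rxrb, and 13.6% of all genes. Rxra differed by 1.38 (SE 0.59, edgeR adjusted p = 0.193) and Cyp26b1 by 0.08 (SE 0.48). The sorts also differ in depth. Medians were 8130.5 and 12815 counts per cell in the D1Tom controls and 1085.5 and 1163 in the GTE controls. Both D1Tom controls were female and both GTE controls male, so sort, depth, sex and preparation cannot be told apart.

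Cell types were then read from marker counts. Cells were clustered within each sort without any of the retinoid genes, Foxp2 or sex-linked genes, and clusters were named (as "-like") from fixed marker lists alone; in D1Tom 14 clusters held at least 30 cells in every library. The members' levels across clusters are given as a description with no test. These names need not match those the authors gave. The submitters describe the sorted cells as neurons, but astrocyte-like cells made up 2946 of the 11494 D1Tom cells.

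**Figure D3:**
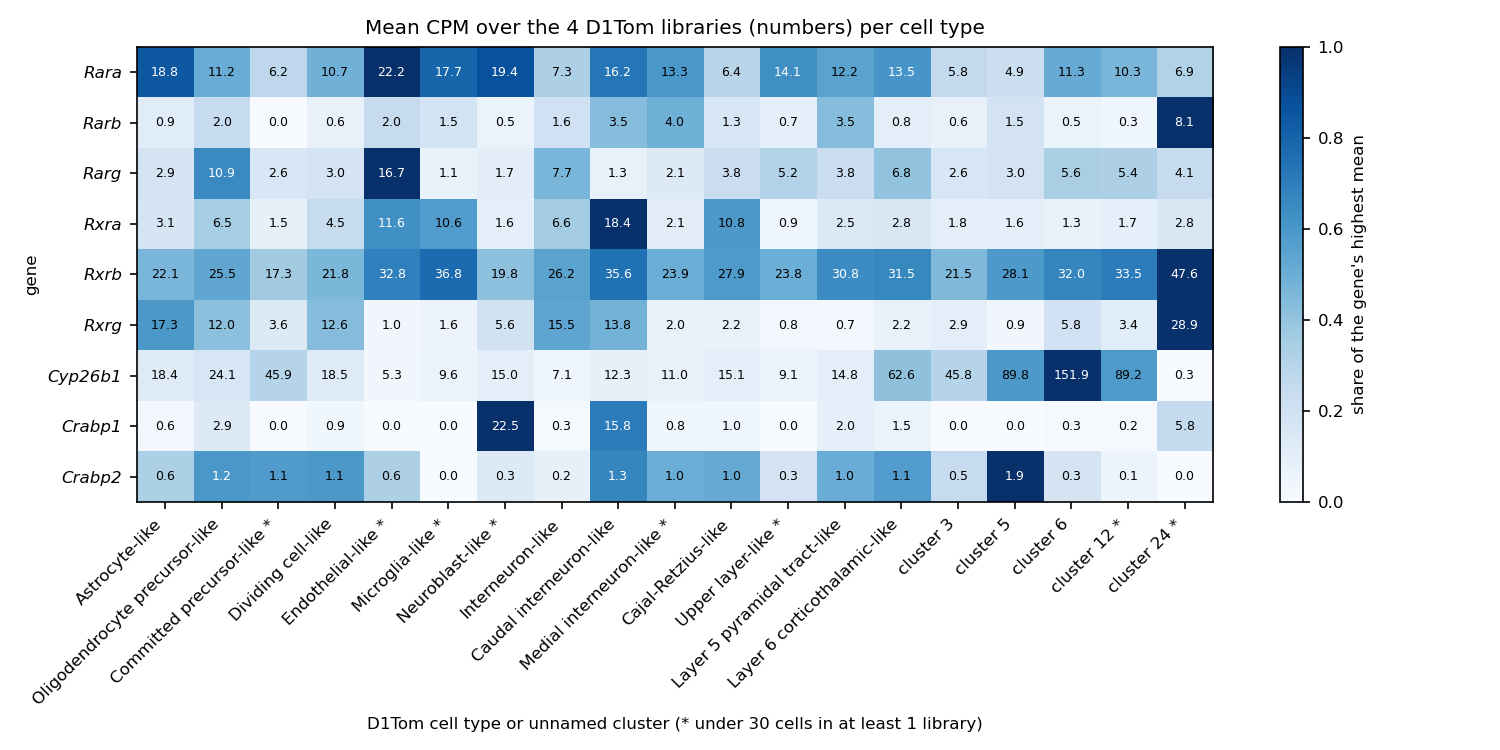
Mean CPM over the 4 D1Tom libraries (number in each box) for each gene (rows) and cell type or unnamed cluster (columns). Shading is the share of the gene's own highest mean, and an asterisk marks a column with under 30 cells in at least 1 library; Cyp26b1 peaks in cluster 6, Rxra in caudal interneuron-like and Crabp1 in neuroblast-like cells, and Rxrb is present throughout.

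Cyp26b1 had its highest mean in 1 unnamed cluster of cells. In the unnamed D1Tom cluster 6 it was at 130, 150, 189 and 138 CPM (mean 152 ± 26.2, SD, n = 4 libraries), just clear of the other 13 of the 14 clusters with at least 30 cells in every library. This cluster of 626 cells held 39.6% of all Cyp26b1 counts. Leading genes of cluster 6 were Slc30a3, which loads zinc into glutamate vesicles, Cyp26b1 itself, Oprk1, a kappa opioid receptor, Cartpt, a neuropeptide precursor, and Neurod6, a factor of excitatory neurons. Cluster 5, also unnamed, followed at 78.7, 66.6, 130 and 84.2 CPM. Cluster 12, with 28 and 32 cells in its smallest libraries, was at 65.7, 112, 82.3 and 96.3 CPM. Clusters 12 and 5 held 13.01% and 6.31% of the counts, and none of these 3 clusters matched a marker list well enough for a name.

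Layer 6 corticothalamic-like cells, in which Foxp2 is best known, held Cyp26b1 at 95.4, 52.5, 58.6 and 43.7 CPM. Control 1 was the high library and the genotypes overlapped (log2 -0.57, SE 0.30, edgeR adjusted p = 0.999). The type joins cluster 13, at 89.0, 50.9, 36.9 and 43.7 CPM, and cluster 21, at 160, 85.3, 182 and 44.1 CPM from 39, 7, 33 and 2 counts. Cluster 21 had fewer than 30 cells in 2 libraries and overlapped the range of cluster 6. It supplied 66 of the 104 cells of this type in cKO 1 but 11 of 106 in control 2. In cluster 13 alone both cKO libraries were below both controls, a count that is not a test. Cyp26b1 was low in upper layer-like cells, at 6.504, 9.60, 4.04 and 16.4 CPM, and in interneuron-like cells, at 1.88, 8.41, 3.55 and 14.5 CPM.

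Since clusters differ in depth, cells were also thinned to 1000 counts each. In cluster 6, 9.50% of control cells (exact 95% interval 6.88% to 12.7%, 421 cells) and 10.2% of cKO cells (6.45% to 15.2%, 205 cells) then held a Cyp26b1 count; unthinned shares were 43.0% and 47.3%, at medians of 21089 and 24553 counts per cell. In microglia-like cells, taken as a type that should lack Cyp26b1, it was 0 of 37 control and 0 of 41 cKO cells, which allows up to 8.11% and 7.32%. Unthinned, 8.11% and 14.6% of them held a count, at medians of 14611 and 9883. Thinned shares in cluster 5 were 5.26% in control and 5.45% in cKO cells, and in astrocyte-like cells 1.58% and 1.74%. Both lie under the limits from these few microglia-like cells, and the cluster 6 intervals reach below those limits. The limits come from too few microglia-like cells to decide whether any of these groups, cluster 6 included, lies above background at this depth. The shares were not tested against each other. These intervals cover counting error only.

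**Figure D4:**
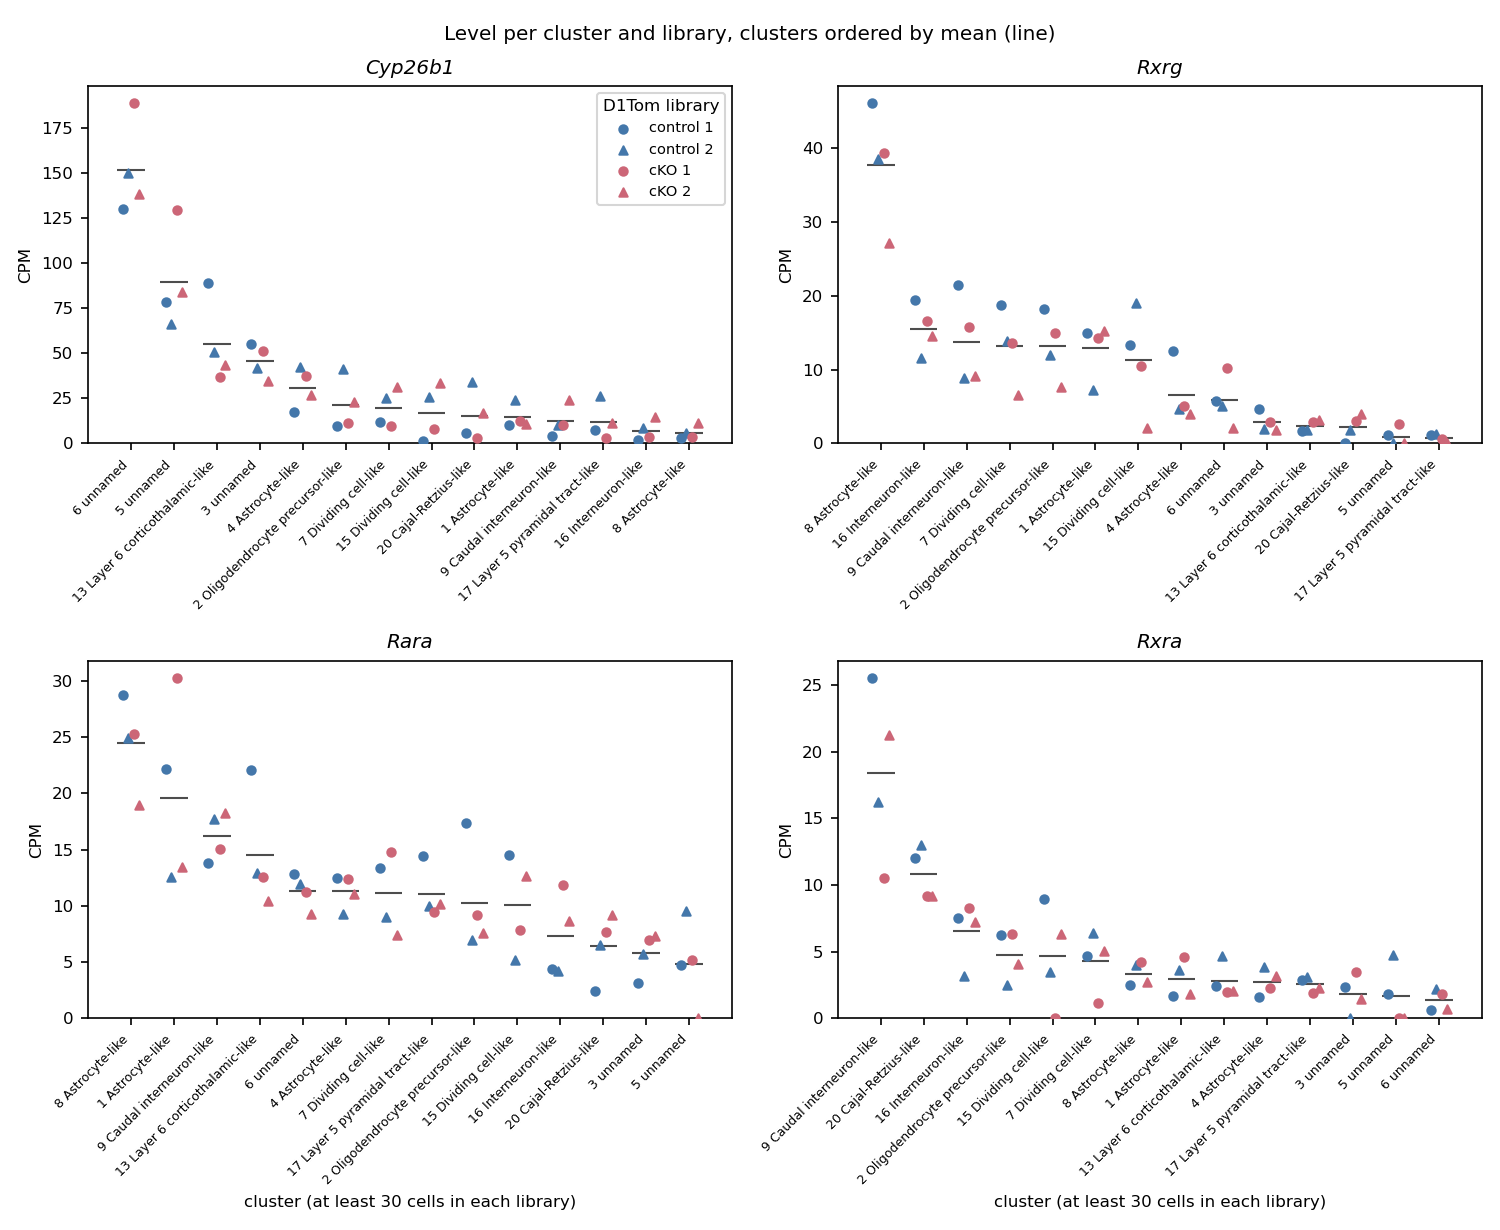
CPM of Cyp26b1, Rxrg, Rara and Rxra per D1Tom library (points, vertical axes starting at 0) in the 14 clusters with at least 30 cells in each library, ordered by the mean of the 4 libraries (line). Circles are replicate 1 and triangles replicate 2, blue for control and red for cKO; the leading cluster of Cyp26b1 and of Rxrg lies clear of the others, while neighbours overlap for Rara.

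Rxrg had its highest level in 1 of the 3 astrocyte-like clusters. Cluster 8 was at 46.1, 38.5, 39.3 and 27.1 CPM (mean 37.7 ± 7.88, SD, n = 4) and held 25.4% of all Rxrg counts, clear of every other cluster of this size. Its leading genes included Gfap, an astrocyte filament, and Cd74 and H2-Ab1, parts of antigen presentation. Astrocyte-like cluster 1, led in part by the stress-responsive genes Fos and Fosb, was at 14.9, 7.21, 14.3 and 15.3 CPM, and astrocyte-like cluster 4 at 12.5, 4.62, 5.06 and 3.94 CPM. Interneuron-like (15.5 ± 3.33), caudal interneuron-like (13.8 ± 6.01), dividing cell-like cluster 7 (13.2 ± 5.01) and oligodendrocyte precursor-like cluster 2 cells (13.2 ± 4.51) followed, with overlapping ranges. In layer 5 pyramidal tract-like cluster 17 and in cluster 5 the mean was under 1 CPM.

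The 3 astrocyte-like clusters ordered Cyp26b1 the other way round. Cluster 4 held it at 17.2, 42.4, 37.6 and 26.8 CPM, cluster 1 at 10.2, 24.3, 12.6 and 10.8 CPM, and cluster 8 at 2.97, 5.99, 3.51 and 11.5 CPM. Clusters 4 and 8 do not overlap for either gene, whereas cluster 1 overlaps cluster 4 for both. Median depth was 6679, 8206.5 and 10766 counts per cell in clusters 1, 4 and 8. Over the 14 clusters Rxrg and Cyp26b1 had a Pearson r of -0.538 and Rxra and Cyp26b1 one of -0.606, on log2 mean CPM of clusters that share the same 4 libraries and differ in depth.

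Rara was spread over glia and neurons. Among the 14 clusters it was highest in astrocyte-like cluster 8, at 28.7, 25.0, 25.3 and 18.95 CPM. Astrocyte-like cluster 1 (19.6 ± 8.31) and caudal interneuron-like cells (16.2 ± 2.12) followed, and every neighbour in its order overlapped. Endothelial-like cells, outside the 14, held Rara at 22.9, 19.4, 34.1 and 12.6 CPM. Clusters 3 and 5 were the lowest of the 14, at 5.77 ± 1.88 and 4.86 ± 3.89 CPM. All astrocyte-like clusters together held 28.4% of its counts. Of the 43 fits of a member in a D1Tom cell type, Rara entered 8, with cKO over control log2 fold changes from -0.74 in layer 6 corticothalamic-like cells to 0.86, in cluster 3, all with edgeR adjusted p between 0.999 and 1.00.

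Of the 14 clusters, Rarg had its highest mean in oligodendrocyte precursor-like cells. Cluster 2 of that type was at 16.9, 6.97, 17.8 and 9.09 CPM, with both libraries of the first preparation day above both of the second. Endothelial-like cells, too few in cKO 1 (18) and control 1 (24) for a fit, were at 5.72, 18.5, 28.1 and 14.5 CPM. Interneuron-like cells were at 9.41, 6.31, 9.47 and 5.79 CPM, while caudal interneuron-like cells were the lowest of the 14 clusters at 1.29 ± 1.29. In GTE, oligodendrocyte precursor-like cells were at 2.64, 7.16, 5.21 and 3.66 CPM and held 12 of the 28 Rarg counts of that sort. Their mean was the highest among GTE clusters with at least 30 cells in every library. In both sorts the range of the leading cluster overlapped that of the next.

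Rxra, the RXR of most tissues, was highest in caudal interneuron-like cells, which carry Adarb2, Vip and Prox1 and arise outside the Emx1-Cre lineage. It was there at 25.6, 16.2, 10.5 and 21.3 CPM (mean 18.4 ± 6.49). Cajal-Retzius-like cells, the reelin-making neurons of layer 1, were next at 12.1, 12.99, 9.17 and 9.19 CPM, overlapping the first but clear of the third, interneuron-like cells at 6.55 ± 2.31. Endothelial-like cells reached 11.4, 8.58, 12.1 and 14.5 CPM. Among the 14 clusters, cluster 6 had the lowest mean, 1.34 ± 0.793 CPM, and outside them upper layer-like cells were at 0.857 ± 0.679 CPM.

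Rxrb was present at similar levels throughout. Over the 14 clusters means ran from 35.6 ± 10.7 CPM in caudal interneuron-like cells to 19.3 ± 3.59 CPM in astrocyte-like cluster 8, and every neighbour in that order overlapped. Types with under 30 cells in a library reached from 17.3 CPM (committed precursor-like) to 47.6 CPM (cluster 24). In cluster 6 its 4 libraries were at 31.7, 33.0, 31.1 and 32.1 CPM. It was the only member that entered all 11 D1Tom type fits, with log2 fold changes from -0.22 to 0.70, the largest in caudal interneuron-like cells (SE 0.35, edgeR adjusted p = 0.999).

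Rarb was sparse in every type. Of the 14 clusters, layer 5 pyramidal tract-like cluster 17 had the highest mean, 4.18 ± 4.06 CPM, from 0, 5.02, 9.44 and 2.26 CPM, and held 25 of the 169 D1Tom counts. Caudal interneuron-like cells were at 2.07, 4.42, 4.51 and 3.04 CPM. Oligodendrocyte precursor-like cells, at 0.778, 0.863, 3.87 and 2.51 CPM, rested on 2, 3, 10 and 10 counts, with both cKO libraries higher, and Rarb passed the filter in no type fit. Crabp2 was at most 1.92 ± 1.49 CPM in any cluster of this size, in cluster 5, and its 99 D1Tom counts lay in 65 of 11494 cells.

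Crabp1 was confined to few cells, 81 of 11494 in D1Tom. The clusters that held its counts differed between the control and cKO libraries, as did the cell numbers of clusters 19 and 24. Neither difference was tested. Caudal interneuron-like cells were at 13.8, 16.2, 12.0 and 21.3 CPM, clear of the other clusters with at least 30 cells per library, and the genotypes overlapped there (log2 0.01, edgeR adjusted p = 0.999). Neuroblast-like cluster 19, led by Igfbpl1, Sp9 and Sp8 and known from the migrating stream toward the olfactory bulb, was at 7.04, 0, 54.9 and 28.1 CPM. It held 24, 5, 115 and 75 cells, and 1 of 58, 0 of 19, 45 of 99 and 27 of 54 Crabp1 counts of the libraries. The unnamed cluster 24, led by Sfrp1, with 4, 1, 74 and 21 cells, held 13 further counts in cKO 1 and 1 in cKO 2.

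**Figure D5:**
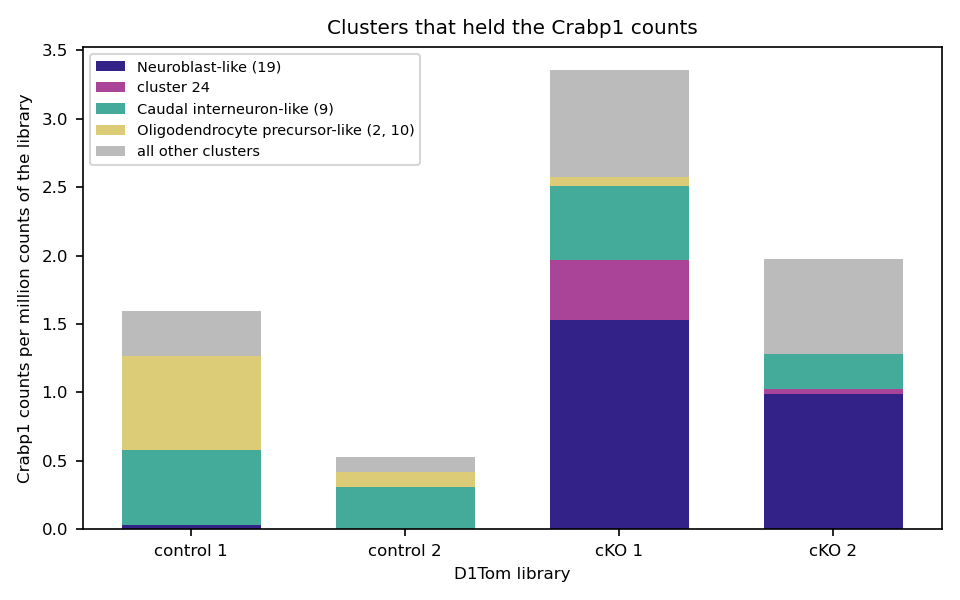
Crabp1 level in CPM of each D1Tom library (bar height, axis starting at 0), split by the cluster that held them. Neuroblast-like cluster 19 and cluster 24 supply most of the cKO bars and almost none of the control bars, and caudal interneuron-like cells supply a part in all 4 libraries.

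Without clusters 19 and 24, a choice made after seeing the data, Crabp1 was at 1.57, 0.529, 1.47 and 0.993 CPM, the genotypes overlapped, and the log2 fold change was 0.30 (SE 0.58, edgeR adjusted p = 1.00). Those clusters held most of the cKO counts, so taking them out lowers the cKO level by construction. All 7 neuroblast markers were higher in both D1Tom cKO libraries, where 9.7% of all genes were. Their summed levels were 217 and 204 CPM in controls and 373 and 372 CPM in cKO. The part of this makeup in the Crabp1 difference was not tested. In control 1, 25 of the 58 counts came from 2 oligodendrocyte precursor-like cells. Thinned to 1000 counts, 8 of 190 neuroblast-like cKO cells (4.21%, exact 95% interval 1.84% to 8.13%) and 0 of 29 control cells, which allows up to 10.3%, held a Crabp1 count. Of the 29 control cells 24 came from control 1, so these pooled shares do not compare the genotypes. Astrocyte-like cells held it in 0 of 1392 control and 0 of 1554 cKO cells after thinning. By the same removal Rarb was at 0.69, 1.25, 1.65 and 1.64 CPM, with both cKO libraries still above both controls (log2 0.81, SE 0.47, edgeR adjusted p = 1.00).

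Within D1Tom cell types the members gave 43 fits, of which 0 passed, where 0.00356% of 112398 gene-by-type tests did, and 0 had an unadjusted edgeR p under 0.05, where 1.97% of all tests did. In GTE there were 5 such fits, of which 0 passed, where 0.0072% of 41652 tests did. DESeq2 called no member in either set. Without D1Tom control 2, which leaves 1 control library, 2 members passed in edgeR: Cyp26b1 in astrocyte-like cells (log2 1.19, adjusted p = 0.010) and Crabp1 in oligodendrocyte precursor-like cells (log2 -4.65, adjusted p = 0.021). In the same fits 10.6% of 12533 genes passed in astrocyte-like cells and 0.342% of 11693 in oligodendrocyte precursor-like cells. The astrocyte-like type joins clusters whose cells differ by library, 642, 116, 370 and 211 in cluster 1 and 63, 257, 169 and 535 in the Cyp26b1-higher cluster 4, and the part of that makeup was not tested. The Crabp1 value rests on the counts of those 2 cells of control 1.

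Genes whose D1Tom cluster pattern was most like a member's were named by the Pearson r of log2 mean CPM over the 14 clusters, among 9970 genes and for members that reach 20 CPM in a cluster. For Cyp26b1 these were Cpne4 (r = 0.946), Rax (0.918) and Neurod6 (0.906), the last also among the leading genes of cluster 6. Rax was a leading gene of upper layer-like cluster 11, which is outside the 14 clusters and in which Cyp26b1 was low. For Rxrg they were Arf4 (0.92), Sf3b6 (0.912) and Rilpl2 (0.903). For Rxrb they were Fbxo21 (0.917), Rabgef1 (0.917) and Trhde (0.915), and for Rara Amer2 (0.888), Sfxn1 (0.838) and Rrp36 (0.836).

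The rest of the pathway was read from fixed lists of 47 genes for retinol and retinoic acid synthesis, transport, breakdown, receptor coregulators, RXR partners and known responders. In D1Tom 39 were tested and 0 passed (18 positive and 21 negative, median log2 -0.04), with only Meis1, a homeobox responder, at an unadjusted p under 0.05 (log2 0.61, SE 0.21, edgeR adjusted p = 0.998). In GTE 29 were tested and 0 passed (16 positive and 13 negative, median 0.05), with the fatty acid receptor Ppara (log2 2.47, SE 1.05) and the alcohol dehydrogenase Adh5 (-1.17, SE 0.54) among those at an unadjusted p under 0.05. Over both sorts 0 of 35 passed, with Meis1 at 0.73 (SE 0.21, edgeR adjusted p = 0.930). Of the 8 known responders outside the members, 3 were positive and 5 negative in D1Tom. Between the control sorts Adh5 alone of 37 passed, lower in D1Tom (log2 -1.90, SE 0.44, edgeR adjusted p = 0.048).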

How the data were processed

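UMI counts per gene and cell were deposited as 1 table per sort (Chromium 3' v2 chemistry), together with a cell table in which the authors gave each cell's library, its count total and the fraction of mitochondrial and ribosomal counts; those fractions were not used. The submitters' processing notes name the builds mm10 and GRCm38.p6, Cell Ranger 2.1.1, UMI-tools 0.5.4, STAR 2.5.2b and featureCounts 1.6.2, with no roles. Of the deposited gene symbols, 92.2% (D1Tom) and 94.0% (GTE) matched the GENCODE M21 annotation.

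The members and gene lists were chosen with earlier results of these data known. All 9 members are named; other retinoid genes are named where they passed or were among the 3 of their list with the smallest p or the highest level, except for 1 gene that is not reported here. Counts were summed per library, or per library and cell type where each library had 30 cells, and tested with edgeR 4.0.16 (quasi-likelihood, TMM, filterByExpr, Benjamini-Hochberg at 0.05) in R 4.3.3, with DESeq2 1.42.0 as an alternative. SE is the log2 fold change divided by the square root of F. Scripts were tested on simulated data. p-values measure only the spread between libraries.

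Cells with at least 500 counts were clustered per sort (2000 variable genes, 30 components, 20 neighbours, Leiden resolution 1, leidenalg 0.10.2). A name needed 3 markers at 2-fold or more, a median marker fold of at least 2, and either 1 marker among the 10 leading genes or every detected marker at 2-fold; this rule was tightened after the clusters were seen. Doublets were kept; an alternative left out the highest doublet scores, 0.8% per 1000 cells. Replicate numbers pair the D1Tom libraries, since the labels tie each number to a preparation day (correlation of deviations 0.5 over 14508 genes), and do not pair the GTE libraries (-0.348 over 12042 genes).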

Additional observations from a re-analysis of the deposited data

How the results depend on the processing

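Genes called by edgeR moved with the processing, members rarely. With DESeq2 the calls were 20 in D1Tom, 0 in GTE, 5 over both sorts, 7 for the interaction, 1901 between control sorts, 24 over D1Tom types and 0 over GTE types. Without a filter on low counts they were 18 in GTE, 184 over D1Tom types and 34 over GTE types, and without the highest doublet scores 14 over GTE types. The replicate block, where numbers pair D1Tom libraries by day, gave 1 call in D1Tom, 0 in GTE, 528 over D1Tom types and 1 over GTE types, with no member among them; the crossed pairing, added after seeing the data, gave 24 in GTE. Leaving out 1 library gave 0 to 6 calls in D1Tom, 1 to 27 in GTE, 52 to 1150 between control sorts, 76 to 1545 over D1Tom types and 6 to 866 over GTE types. Between control sorts 2 members (Rarg and Rxrb) were called by DESeq2 and 0 to 2 on leaving out a library, and over D1Tom types 0 to 2. The cause of these shifts was not tested.

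Signs turned in neuron-like D1Tom cells for Rxra (-0.12) and Rxrg (0.079), with the replicate block in GTE for Rxrg (-0.022, crossed pairing -0.006), and without the highest doublet scores for Crabp1 in caudal interneuron-like cells (-0.026) and Crabp2 in D1Tom (0.037). On leaving out 1 library, log2 fold changes in D1Tom ran from -0.284 to 0.414 for Rxra, -0.362 to 0.166 for Rxrg, -0.312 to 0.244 for Cyp26b1 and -0.356 to 0.234 for Crabp2. In GTE they ran from -0.624 to 0.198 for Rxrb and -0.684 to 0.547 for Rxrg. Over both sorts they ran from -0.02 to 0.371 for Rarg, -0.166 to 0.091 for Rxrb and -0.295 to 0.102 for Rxrg, and for the interaction from -0.127 to 0.646 for Rxrb and -0.676 to 0.551 for Rxrg. Between control sorts they ran from -0.17 to 0.808 for Rarb, -0.359 to 0.601 for Rxrg and -0.281 to 0.619 for Cyp26b1. In D1Tom types they ran from -0.415 to 0.208 for Rara in astrocyte-like cells, -0.626 to 0.345 for Rarg in oligodendrocyte precursor-like cells, and -1.084 to 0.051 for Rxra and -0.373 to 0.575 for Crabp1 in caudal interneuron-like cells. Where an arm is left with 1 library, it is assumed to vary like the others. A fit of neuron-like GTE cells was not run, since too few were named. Depth limits the GTE values of Crabp2, Crabp1, Rarg, Rarb and Rxra most, with 4, 5, 28, 31 and 33 counts.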

Other observations

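Levels of other retinoid genes across D1Tom cell types are described here without a test. Endothelial-like cells held the highest level of Stra6, which carries retinol across the cell membrane, at 25.7 and 54.2 CPM in the control and 24.1 and 40.9 CPM in the cKO libraries; the values that follow keep this order. The next type, Cajal-Retzius-like cells, had a mean of 4.02 CPM. The same endothelial-like cells held Ppard, an RXR partner, at 113, 110, 102 and 87.5 CPM. They are few, with 18 cells in cKO 1 and 24 in control 1.

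Astrocyte-like cluster 8, where Rxrg was highest, also held 41.2% of all D1Tom counts of Aldh1a1, an enzyme that makes retinoic acid, at 50.5, 23.0, 22.5 and 31.1 CPM. Fabp5, a fatty acid-binding protein that can carry retinoic acid, averaged 2166 ± 586 CPM over the 4 libraries in astrocyte-like cells. Meis2, a homeobox gene known to rise with retinoic acid, averaged 1349 ± 874 CPM in neuroblast-like cells and 1233 CPM in cluster 24, the clusters that held most Crabp1 counts of the cKO libraries. Nr4a2, an orphan receptor that pairs with RXR, was at 35.7, 23.5, 23.9 and 32.8 CPM in layer 6 corticothalamic-like cells. Cyp26a1 and Cyp26c1, the other CYP26 enzymes, averaged 0.374 and 0.017 CPM over all D1Tom cells.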
